A study of Mus musculus with 12 samples.

Results

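The genes described here encode the mitochondrial respiratory chain and ATP synthase, as far as they are coded in the nucleus. They were taken as all genes whose symbol in the array annotation begins with Nduf, Uqcr, Atp5 or Cox4 to Cox8, together with Sdha, Sdhb, Sdhc, Sdhd and Cyc1. This gave 90 of the 19937 genes that were measured by a probe set naming 1 gene. Among them were 6 core and 28 accessory subunits of complex I, 7 assembly factors of complex I (Ndufaf1 to Ndufaf7, which are not subunits), Ndufa4 with its paralogue Ndufa4l2, 4 subunits of complex II and 9 of complex III. A further 9 were general and 7 were tissue-restricted subunits of complex IV, 1 was the supercomplex factor Cox7a2l, and 17 belonged to ATP synthase, or complex V.

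RNA was measured on 12 Affymetrix mouse gene arrays, 3 in each of 4 groups, from Lewis lung carcinoma, a transplantable mouse tumour, cut from the lungs of C57BL/6 hosts, all female, whose age the labels do not give. The groups were RelA/p65 deficient hosts exposed to smoke, RelA/p65 deficient hosts exposed to air, wild type hosts exposed to smoke and wild type hosts exposed to air. The series title places the RelA/p65 deficiency (RelA/p65 is part of NF-kB, a transcription factor) in myeloid cells, and the labels name neither the allele nor the driver, nor the kind and length of smoke exposure. Nothing in the labels ties the 3 arrays of a group to separate animals. The p-values therefore measure the spread between samples alone, and that spread may be technical.

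Complex I takes electrons from NADH and complex II from succinate, and both pass them through ubiquinone to complex III, then by cytochrome c to complex IV, which reduces oxygen to water. Complexes I, III and IV pump protons across the inner membrane, and complex V lets them flow back to make ATP. Most subunits are made in every cell that has mitochondria, but several small subunits of complex IV exist as alternative forms made from separate genes: liver-type or general forms (Cox6a1, Cox7a2, Cox8a), heart and skeletal muscle forms (Cox6a2, Cox7a1, Cox8b), the lung form Cox4i2 of the largest nuclear-coded subunit, and forms best known from testis (Cox6b2, Cox7b2, Cox8c).

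The median log2 level over all genes lay between 7.26 and 7.51 on the 12 arrays, and arrays of the same group correlated with r of 0.990 to 0.998. Rela, the targeted gene, was not lower in the deficient arrays: its log2 level averaged 9.31 ± 0.05 in deficient smoke, 9.42 ± 0.04 in deficient air, 9.08 ± 0.10 in wild type smoke and 9.22 ± 0.06 in wild type air (SD, n = 3 arrays each), from 1 probe set. It was higher in deficient hosts by 0.23 under smoke (adjusted p = 0.00873) and by 0.20 under air (adjusted p = 0.0285). Groups are therefore named as labelled. Markers of alveolar epithelium separated the groups by more than any respiratory chain gene did. The mean log2 level of 9 alveolar epithelial markers was 11.91 to 12.04 in deficient smoke, 11.94 to 11.98 in deficient air, 8.78 to 8.94 in wild type smoke and 11.01 to 11.23 in wild type air. The mean of 7 macrophage markers was 9.88 to 10.08 in deficient smoke, 10.09 to 10.18 in deficient air, 10.42 to 10.54 in wild type smoke and 9.41 to 9.59 in wild type air. In such bulk tissue, fewer cells of a type and less RNA per cell cannot be told apart.

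The respiratory chain genes were bright and even. Their mean log2 level ran from 4.31 for Cox7b2 to 13.08 for Atp5b, with a median of 9.76, against a median of 7.44 over all genes. The distance between the highest and the lowest of the 4 group means had a median of 0.24 log2 units over the 90 genes, against 0.35 over all genes and 0.42 over the 8078 genes with a mean log2 level of at least 8. The typical spread between arrays of a group was 0.084, 0.11 and 0.089 log2 units in these 3 sets. A distance of at least 0.5 was reached by 9 of the 90 genes (10%), against 31.4% of all genes and 42.6% of those at least as bright as 8. The 9 genes were Cox4i2 (1.16), Cox7a1 (0.95), Ndufa4l2 (0.81), Atp5g2 (0.78), Cox6a2 (0.60), Cox8b (0.58), Ndufaf2 (0.56), Cox8c (0.55) and Ndufaf3 (0.53). Of these, 5 were tissue-restricted subunits of complex IV and only Atp5g2 was a general subunit.

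Each comparison was tested with limma over all genes, and a gene passed at a Benjamini-Hochberg adjusted p of at most 0.05. Between deficient and wild type hosts under smoke, 12 of the 90 genes were higher and 37 lower (54.4%), while 59.6% of all genes passed, 22.7% higher and 37% lower. Under air, 8 were higher and 22 lower in deficient hosts (33.3%), while 38.5% of all genes passed, 20.5% higher and 18% lower. With smoke in wild type hosts 4 were higher and 7 lower (12.2%), while 29% of all genes passed, 15% higher and 14% lower. With smoke in deficient hosts limma called 0 of the 90 genes in either direction (5 had an unadjusted p under 0.05), while 2.41% of all genes passed, 0.692% higher and 1.72% lower. With the values as deposited, the share of the 90 genes passing in either direction was thus below that of all genes in each comparison. Counted alone, the genes lower in deficient hosts were not below it. They were 37 of 90 under smoke, against 37% of all genes, and 22 of 90 under air, against 18%.

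Without regard to sign, the median size of the log2 difference was 0.202 for genotype under smoke, 0.123 for genotype under air, 0.0442 for smoke in deficient hosts and 0.09997 for smoke in wild type hosts, against 0.284, 0.161, 0.0654 and 0.171 over all genes. With the sign, the median log2 difference of the 90 genes was -0.13 for genotype under smoke, -0.07 for genotype under air, -0.02 for smoke in deficient hosts and 0.02 for smoke in wild type hosts, beside -0.14, -0.03, -0.00339 and 0.08 over all genes. The number of genes that passed and their split into higher and lower depended on the scaling. Centring each array on its median moved every difference by -0.14 (genotype, smoke), -0.08 (genotype, air), 0.02 (smoke, deficient) and 0.09 (smoke, wild type), and the counts higher and lower became 5 and 59, 5 and 36, 1 and 0, and 23 and 3. With quantile normalization they were 10 and 47, 6 and 33, 1 and 0, and 15 and 5. The shares of all genes under these scalings are not given here, so these counts cannot be set against them.

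**Figure D1:**
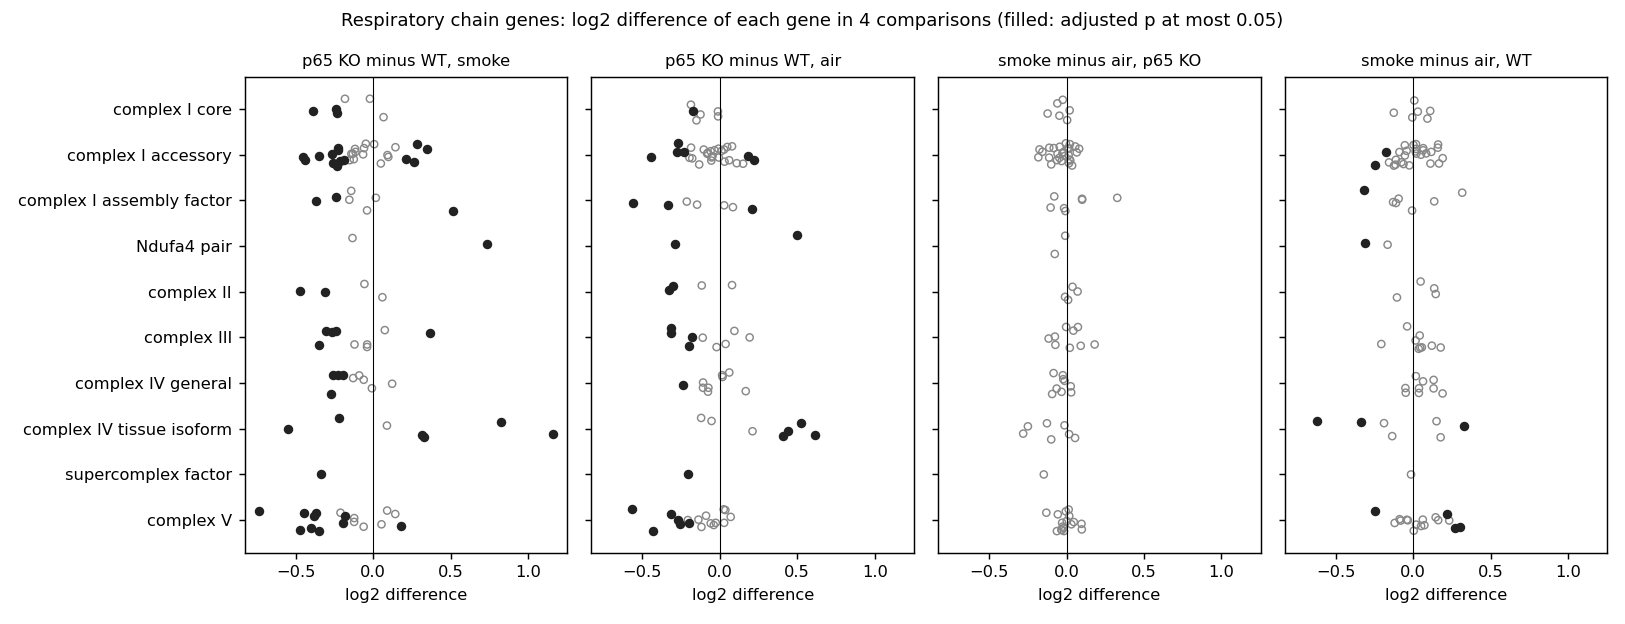
Log2 difference of each of the 90 genes (horizontal axis) in 4 comparisons, by class of gene; p65 KO stands for RelA/p65 deficient hosts and WT for wild type hosts, and filled points passed the test. Most points lie within 0.5 of 0, the points for smoke in deficient hosts are all open, and the points farthest to the right are Cox4i2 at 1.16 and Cox7a1 at 0.82, both tissue-restricted subunits of complex IV.

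The tissue-restricted subunits of complex IV had a median genotype difference of 0.32 under smoke and 0.41 under air. Under smoke 4 of 7 were higher and 2 lower in deficient hosts, and under air 4 were higher and 0 lower, with 5 of 7 at an unadjusted p under 0.05. The 4 higher genes were in both cases Cox4i2, Cox7a1, Cox6a2 and Cox8b. Beside these counts, 22.7% of all genes were higher and 37% lower under smoke, and 20.5% and 18% under air. Of the 9 general subunits of complex IV, 0 were higher and 4 lower under smoke, and 0 were higher and 1 lower under air, where 2 had an unadjusted p under 0.05. Smoke in wild type hosts left 2 tissue-restricted subunits lower and 1 higher and moved 0 of the 9 general ones past the test (1 had an unadjusted p under 0.05). Among all genes 15% were higher and 14% lower in that comparison.

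Cox4i2, the lung form of subunit 4, varied most of all 90 genes. Its log2 level was 8.57, 8.67 and 8.52 in deficient smoke, 8.61, 8.58 and 8.52 in deficient air, 7.06, 7.65 and 7.57 in wild type smoke and 7.88, 8.14 and 8.12 in wild type air. All 6 deficient arrays stood above all 6 wild type arrays, and the wild type smoke arrays stood below the wild type air arrays without overlap. The gene was higher by 1.16 ± 0.13 (SE; 2.23-fold) in deficient hosts under smoke (limma, adjusted p = 4.76e-06) and by 0.52 ± 0.13 under air (adjusted p = 0.00487). With smoke it fell by 0.62 ± 0.13 in wild type hosts (adjusted p = 0.00279), or by 0.435 without wild type smoke replicate 1, the lowest array. In deficient hosts the smoke difference was 0.02 ± 0.13. The general form Cox4i1 had log2 levels of 10.39, 10.21 and 10.19 in deficient smoke, 10.37, 10.29 and 10.19 in deficient air, 10.52, 10.49 and 10.56 in wild type smoke and 10.35, 10.36 and 10.47 in wild type air. It went the other way under smoke, lower in deficient hosts by 0.26 (adjusted p = 0.00884), and the arrays under air overlapped (-0.11, adjusted p = 0.296).

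Cox7a1, the heart and muscle form of subunit 7a, had log2 levels of 7.72, 7.78 and 7.82 in deficient smoke, 7.90, 8.01 and 7.79 in deficient air, 6.85, 6.98 and 7.02 in wild type smoke and 7.26, 7.33 and 7.28 in wild type air. The deficient arrays were again all above the wild type arrays, with a gap wider than the spread within any group. The difference was 0.82 ± 0.07 under smoke (1.77-fold; limma, adjusted p = 5.35e-07) and 0.61 ± 0.07 under air (adjusted p = 1.73e-05), and with smoke in wild type hosts the gene fell by 0.34 ± 0.07 (adjusted p = 0.00352). Its general counterpart Cox7a2 had group means of 9.95 ± 0.09, 9.92 ± 0.07, 10.01 ± 0.14 and 9.998 ± 0.123 in deficient smoke, deficient air, wild type smoke and wild type air (SD, n = 3). Cox7a2 passed in no comparison, with differences between -0.07 and 0.03.

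Cox8b, the muscle form of subunit 8, had log2 levels of 6.56, 6.72 and 6.82 in deficient smoke, 6.99, 6.85 and 7.01 in deficient air, 6.20, 6.53 and 6.39 in wild type smoke and 6.50, 6.57 and 6.47 in wild type air. Deficient and wild type arrays did not overlap under either exposure. Differences were 0.33 ± 0.09 under smoke (adjusted p = 0.00772) and 0.44 ± 0.09 under air (adjusted p = 0.00146). With arrays centred on their medians the smoke value was 0.183 and did not pass (adjusted p = 0.0694). Cox6a2, the muscle form of subunit 6a, had 7.96, 8.12 and 8.30 in deficient smoke, 8.57, 8.40 and 8.26 in deficient air, 7.56, 7.92 and 7.96 in wild type smoke and 7.94, 8.11 and 7.95 in wild type air. It was higher in deficient hosts by 0.32 ± 0.12 under smoke (adjusted p = 0.0351) and by 0.41 ± 0.12 under air (adjusted p = 0.0145).

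The smoke value of Cox6a2 was the least stable of the 4: it was 0.175 with centred arrays, 0.177 with quantile normalization, 0.191 without wild type smoke replicate 1, 0.322 without deficient smoke replicate 2 and 0.231 without deficient smoke replicate 3, and passed in none of these. In limma on the 6 smoke arrays alone it missed the test too (adjusted p = 0.0672). Under air, leaving out wild type air replicate 1 (0.377) or deficient air replicate 1 (0.329) ended the call of Cox6a2. Neither Cox8b (-0.14, adjusted p = 0.262) nor Cox6a2 (-0.19, adjusted p = 0.239) passed for smoke in wild type hosts. The general forms Cox8a and Cox6a1 passed in no comparison, with genotype differences of -0.09 and 0.12 under smoke and of -0.08 and 0.17 under air. All deficient arrays of Cox6a1 nevertheless lay above all its wild type arrays, at 10.04 against 10.03 where they came closest.

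**Figure D2:**
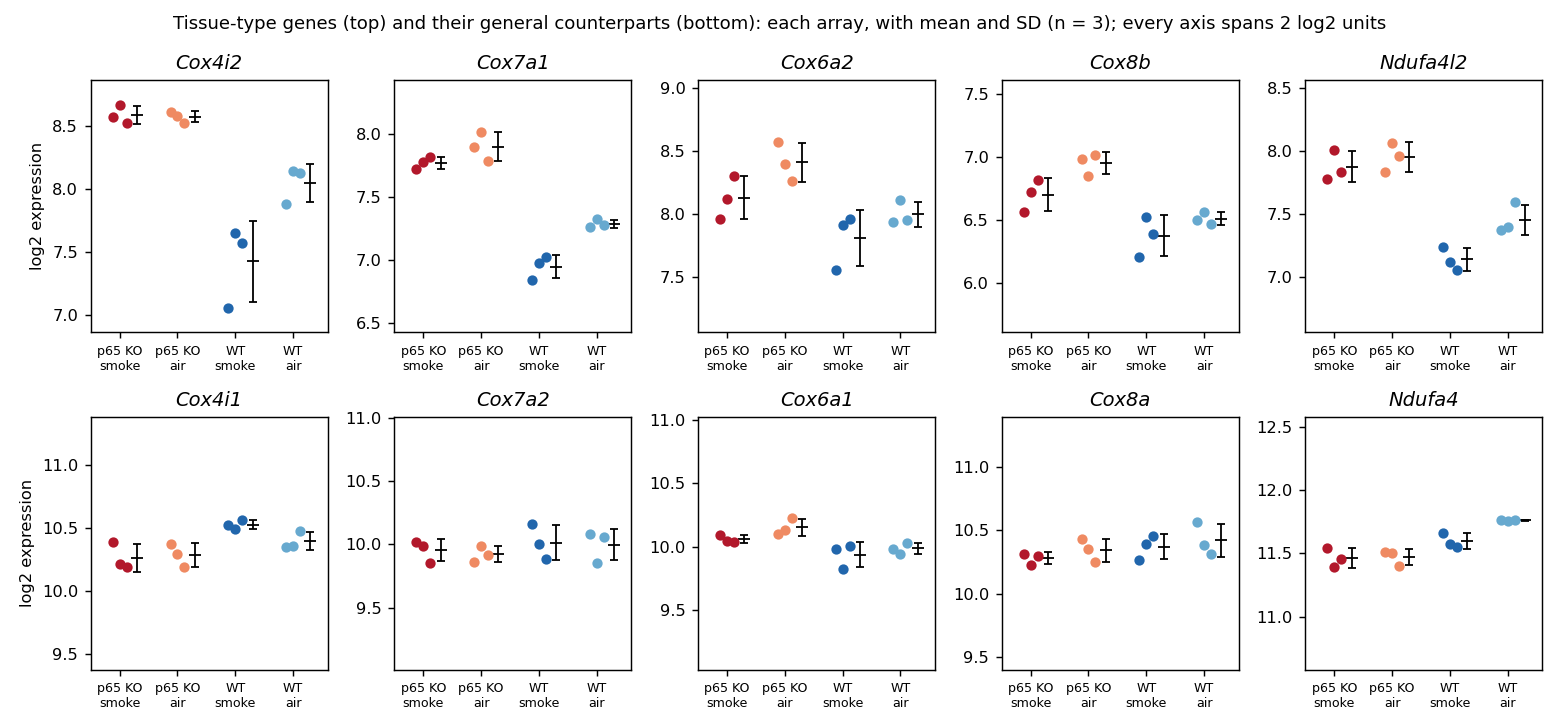
Log2 expression on every array for 4 tissue-restricted complex IV subunits and Ndufa4l2 (top) and for their general counterparts (bottom); p65 KO stands for RelA/p65 deficient and WT for wild type hosts, points are arrays, and the bars beside them give the mean and SD (n = 3). In the top panels for Cox4i2, Cox7a1 and Ndufa4l2 all 6 deficient arrays lie above all 6 wild type arrays. For Cox6a2 and Cox8b some deficient smoke arrays lie below a wild type air array. In the lower line deficient and wild type arrays overlap for Cox4i1, Cox7a2 and Cox8a. By a narrow margin all deficient arrays lie above all wild type arrays for Cox6a1 and below them for Ndufa4.

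Among the forms best known from testis, Cox8c and Cox7b2 did not follow the muscle and lung forms. Cox8c had log2 levels of 6.18, 6.31 and 6.25 in deficient smoke, 6.44, 6.32 and 6.28 in deficient air, 6.74, 6.86 and 6.79 in wild type smoke and 6.39, 6.602 and 6.41 in wild type air. The wild type smoke arrays alone stood above the rest: the gene rose with smoke in wild type hosts by 0.33 ± 0.07 (adjusted p = 0.00536) and was lower in deficient hosts under smoke by 0.55 ± 0.07 (adjusted p = 3.4e-05). Cox8c was dim, with a mean log2 level of 6.47 against a median of 7.44 over all genes. Cox7b2, at 4.24 ± 0.06 in deficient smoke and 4.46 ± 0.14 in wild type smoke the dimmest gene of the family, was lower by 0.22 in deficient hosts under smoke (adjusted p = 0.0295). Cox6b2 passed in no comparison, and its genotype differences were 0.09 and 0.21 under smoke and air. Under air its deficient arrays lay above its wild type arrays without overlap, in the direction of the muscle and lung forms.

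Markers of cardiac muscle and of several other cell types differed in the same comparisons, while those of skeletal muscle did not follow the muscle forms. The part of any of these cells in the result was not tested. The mean log2 level of 9 cardiac muscle markers was 9.13 to 9.24 in deficient smoke, 9.37 to 9.46 in deficient air, 6.70 to 7.01 in wild type smoke and 8.31 to 8.50 in wild type air. In deficient hosts 8 of the 9 were higher under both exposures (median differences 2.73 under smoke and 0.88 under air), and with smoke in wild type hosts 8 of 9 were lower (median -1.78). The atrial light chain gene Myl7, for example, differed by 4.17 under smoke between hosts and by -3.30 with smoke in wild type hosts. Of 8 skeletal muscle markers 1 was higher and 3 lower in deficient hosts under smoke, and 1 was higher under air, in both cases with Ckm, muscle creatine kinase, as the higher one. Their medians were -0.21 and 0.00598, and 3 of the 8 were higher with smoke in wild type hosts, where Cox7a1 fell. Their mean level was 6.38 to 6.45 in deficient smoke, 6.38 to 6.43 in deficient air, 6.34 to 6.71 in wild type smoke and 6.30 to 6.41 in wild type air. Of 9 pericyte and vascular smooth muscle markers 6 were higher and 2 lower under smoke and 5 were higher and 1 lower under air. Their mean level was 8.50 to 8.61 in deficient smoke, 8.50 to 8.53 in deficient air, 7.69 to 7.95 in wild type smoke and 8.11 to 8.15 in wild type air. With smoke in wild type hosts 2 of these 9 markers were higher and 4 lower (median -0.11). Higd1b, a pericyte gene, differed by 1.34 and 0.77 in the genotype comparisons under smoke and air and by -0.62 with smoke in wild type hosts. Of 6 brown adipocyte markers 3 were higher and 2 lower in deficient hosts under smoke, and 3 were higher and 0 lower under air (3 had an unadjusted p under 0.05). Their mean level was 5.77 to 5.87 in deficient smoke, 5.81 to 5.85 in deficient air, 5.602 to 5.847 in wild type smoke and 5.69 to 5.72 in wild type air. Among them Ucp1, the uncoupling protein of brown fat, did not pass in any comparison. Of 5 general adipocyte markers 3 were higher under smoke and 4 under air, with medians of 0.63 and 0.70. Markers of other cell types differed too: 7 of 7 endothelial, 6 of 6 airway epithelial and 6 of 6 lymphocyte markers were higher in deficient hosts under smoke, and 7, 3 and 6 of them under air. Macrophage markers changed direction: 0 of 7 were higher and 5 lower under smoke, and 6 were higher and 0 lower under air. Beside all these marker counts, 22.7% of all genes were higher and 37% lower under smoke, and 20.5% and 18% under air. With smoke in wild type hosts the shares of all genes were 15% and 14%.

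For the pairs with an entry, the 250 bases before the RefSeq transcription start are shown so that the general and the muscle form can be set side by side (mouse build GRCm38.p6, first listed start of each gene, written in the direction of the gene). The first pair is Cox7a1 at chr7:30183921-30184170 on the plus strand and Cox7a2 at chr9:79759854-79760103 on the minus strand.
Cox7a1: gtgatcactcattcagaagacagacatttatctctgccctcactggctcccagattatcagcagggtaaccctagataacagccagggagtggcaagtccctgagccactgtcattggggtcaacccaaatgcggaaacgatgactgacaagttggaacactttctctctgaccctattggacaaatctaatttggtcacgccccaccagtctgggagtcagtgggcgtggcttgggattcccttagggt
Cox7a2: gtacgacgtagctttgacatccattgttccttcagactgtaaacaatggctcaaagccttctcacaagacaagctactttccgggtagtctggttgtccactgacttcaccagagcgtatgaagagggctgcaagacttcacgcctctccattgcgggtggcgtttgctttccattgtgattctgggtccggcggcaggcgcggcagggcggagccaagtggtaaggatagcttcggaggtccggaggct
The second pair is Cox8b at chr7:140900447-140900696 and Cox8a at chr19:7217617-7217866, both on the minus strand.
Cox8b: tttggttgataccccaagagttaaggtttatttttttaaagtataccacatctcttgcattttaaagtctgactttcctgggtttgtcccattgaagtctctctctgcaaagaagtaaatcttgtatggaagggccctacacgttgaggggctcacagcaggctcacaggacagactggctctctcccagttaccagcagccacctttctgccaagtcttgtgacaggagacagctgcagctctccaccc
Cox8a: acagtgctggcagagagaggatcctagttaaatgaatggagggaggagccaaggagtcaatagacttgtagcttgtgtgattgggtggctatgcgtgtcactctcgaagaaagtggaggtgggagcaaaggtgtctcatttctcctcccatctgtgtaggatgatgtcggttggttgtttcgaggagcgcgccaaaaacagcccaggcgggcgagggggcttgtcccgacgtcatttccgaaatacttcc
None of these 4 windows held the motifs searched, which were GCGCA and GCGC with any 1 base between them for the regulator NRF1, CCGGAAG for ETS factors such as GABP, and the TATA letters TATAAA, on both strands.

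Ndufa4l2 and Ndufa4 form a further pair. Ndufa4, named as a complex I subunit, is known as a subunit of complex IV, and Ndufa4l2 is its hypoxia-inducible paralogue and is also abundant in pericytes. Ndufa4l2 had log2 levels of 7.78, 8.01 and 7.84 in deficient smoke, 7.83, 8.07 and 7.96 in deficient air, 7.24, 7.12 and 7.06 in wild type smoke and 7.38, 7.40 and 7.59 in wild type air. All deficient arrays were above all wild type arrays. It was higher in deficient hosts by 0.73 ± 0.09 under smoke (1.66-fold; limma, adjusted p = 1.21e-05) and by 0.50 ± 0.09 under air (adjusted p = 0.00055). With smoke in wild type hosts it was lower by 0.31 ± 0.09 (adjusted p = 0.0194), a call lost with centred arrays (-0.224), with quantile normalization (-0.248), in the 6 arrays alone, and without wild type air replicate 3 (-0.245) or wild type smoke replicate 2 (-0.304) or 3 (-0.273).

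Ndufa4 had log2 levels of 11.54, 11.39 and 11.46 in deficient smoke, 11.51, 11.51 and 11.40 in deficient air, 11.67, 11.58 and 11.55 in wild type smoke and 11.76, 11.76 and 11.77 in wild type air. Wild type air was above the rest, and the deficient arrays were lower under air by 0.29 ± 0.06 (adjusted p = 0.00235) and by 0.13 under smoke without passing (adjusted p = 0.0855). The pair thus went in opposite directions between hosts under air.

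Genes known as targets of the hypoxia-inducible factor HIF were mostly lower in deficient hosts, where Ndufa4l2 was higher. With smoke in wild type hosts they were mostly higher, where Ndufa4l2 was lower. Of 21 such genes, none of them a respiratory chain gene, 3 were higher and 16 lower in deficient hosts under smoke (median -0.77), 4 were higher and 11 lower under air (median -0.36), and 14 were higher and 1 lower with smoke in wild type hosts (median 0.39). Over all genes the shares higher and lower were 22.7% and 37%, 20.5% and 18%, and 15% and 14% in these comparisons. Adm, which encodes adrenomedullin, differed by -2.61 and Ndrg1 by -1.84 between hosts under smoke, while Vegfa, the vascular growth factor gene that alveolar epithelium also makes, differed by 1.88.

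The subunits of complex I that passed between hosts did so in both directions, and the share lower under smoke was near the 37% of all genes. Of its 6 core subunits 0 were higher and 3 lower under smoke, and 0 were higher and 1 lower under air (3 and 2 had an unadjusted p under 0.05). Of 28 accessory subunits 4 were higher and 10 lower under smoke, and 2 were higher and 4 lower under air. The shares of all genes under air were 20.5% higher and 18% lower. Ndufb9, an accessory subunit of the membrane arm, had the most even difference: 9.43, 9.41 and 9.33 in deficient smoke, 9.47, 9.35 and 9.30 in deficient air, 9.85, 9.78 and 9.87 in wild type smoke and 9.78, 9.84 and 9.82 in wild type air. No deficient array reached a wild type array, and the difference was -0.44 ± 0.06 under both smoke (adjusted p = 5.39e-05) and air (adjusted p = 8.25e-05), with a smoke difference of 0.02 in each genotype.

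Ndufa10, another accessory subunit, averaged 10.35 ± 0.04 in deficient smoke and 10.80 ± 0.09 in wild type smoke (SD, n = 3), a difference of -0.45 ± 0.07 (limma, adjusted p = 8.45e-05). Under air it averaged 10.41 ± 0.08 in deficient and 10.69 ± 0.05 in wild type hosts (-0.28, adjusted p = 0.00539). Ndufv2, an iron-sulfur subunit, was lower by 0.39 under smoke (adjusted p = 0.000198) and by 0.18 under air (adjusted p = 0.0471). Ndufv1, which holds the flavin, was lower by 0.23 under smoke (adjusted p = 0.006) and differed by -0.13 under air without passing. Ndufs1, the largest iron-sulfur subunit, was lower by 0.24 under smoke (adjusted p = 0.0261), a call lost without wild type smoke replicate 1 (-0.154) or deficient smoke replicate 2 (-0.206) or 3 (-0.224), and differed by -0.19 under air without passing. The accessory subunits Ndufs4 (-0.06 under smoke and -0.08 under air) and Ndufs6 (-0.11 and 0.03) passed in neither comparison.

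Not every accessory subunit was lower. Ndufb11 was higher by 0.35 under smoke (adjusted p = 0.000375) and by 0.22 under air (adjusted p = 0.0132). Ndufc2 was higher by 0.28 under smoke (adjusted p = 0.00256) and by 0.18 under air (adjusted p = 0.0441). Under air, centred arrays gave 0.141 for Ndufb11 and 0.104 for Ndufc2, and neither passed. The air call was also lost for Ndufb11 without wild type air replicate 1 (0.179) and for Ndufc2 in 12 of 18 alternative settings in all. Ndufab1, the mitochondrial acyl carrier protein, was lower by 0.21 and 0.27 under smoke and air on the probe set used, while its dimmer probe set gave differences of 0.23 and 0.27, so its direction is uncertain.

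The assembly factors of complex I, proteins that build the complex and leave it, included 2 of the genes with the widest range. Ndufaf2, a paralogue of the subunit Ndufa12, had log2 levels of 8.41, 8.16 and 8.27 in deficient smoke, 8.003, 7.92 and 7.94 in deficient air, 8.54, 8.32 and 8.42 in wild type smoke and 8.58, 8.42 and 8.56 in wild type air. The deficient air arrays lay below all others, and the gene was lower in deficient hosts under air by 0.56 ± 0.08 (adjusted p = 9e-05) but only by 0.14 under smoke (adjusted p = 0.145). Ndufaf3, which acts early in complex I assembly together with Ndufaf4, had 8.45, 8.33 and 8.55 in deficient smoke, 8.50, 8.49 and 8.37 in deficient air, 7.85, 7.88 and 8.05 in wild type smoke and 8.24, 8.23 and 8.27 in wild type air. Here wild type smoke was lowest: the gene was higher in deficient hosts under smoke by 0.52 ± 0.08 (adjusted p = 6.18e-05) and fell with smoke in wild type hosts by 0.32 ± 0.08 (adjusted p = 0.00677). Its difference of 0.21 under air (adjusted p = 0.0454) was lost in 10 of 18 alternative settings, among them centred arrays (0.129), quantile normalization (0.153) and the replicate number as a block (adjusted p = 0.0511). Ndufaf7, which methylates a core subunit, was lower by 0.34 under air (adjusted p = 0.00351) and by 0.24 under smoke (adjusted p = 0.0182).

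In complex II the membrane anchor subunits differed and the catalytic subunits did not pass. Sdhd had log2 levels of 10.12, 9.99 and 10.17 in deficient smoke, 10.21, 10.02 and 10.08 in deficient air, 10.37, 10.57 and 10.77 in wild type smoke and 10.43, 10.42 and 10.45 in wild type air. Deficient and wild type arrays did not overlap, and the difference was -0.47 ± 0.09 under smoke (adjusted p = 0.000796) and -0.33 ± 0.09 under air (adjusted p = 0.0128). Without deficient air replicate 2 the air value was -0.286 and missed the test (adjusted p = 0.0608). Sdhc, the other anchor, had 9.31, 9.21 and 9.41 in deficient smoke, 9.35, 9.23 and 9.24 in deficient air, 9.62, 9.59 and 9.66 in wild type smoke and 9.60, 9.58 and 9.55 in wild type air. It was lower in deficient hosts by 0.31 ± 0.07 under smoke (adjusted p = 0.00136) and by 0.30 ± 0.07 under air (adjusted p = 0.00233). The flavoprotein Sdha and the iron-sulfur subunit Sdhb gave 0.06 and -0.06 under smoke and -0.12 and 0.08 under air. Whether the anchors differed from the catalytic subunits was not tested.

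In complex III, 1 of 9 subunits was higher and 4 lower in deficient hosts under smoke, and 0 were higher and 4 lower under air, where 5 had an unadjusted p under 0.05. All genes gave 22.7% higher and 37% lower under smoke, and 20.5% and 18% under air. Cyc1, cytochrome c1, averaged 10.53 ± 0.07 in deficient smoke, 10.44 ± 0.04 in deficient air, 10.79 ± 0.17 in wild type smoke and 10.75 ± 0.13 in wild type air (SD, n = 3). It was lower by 0.26 under smoke (limma, adjusted p = 0.0239) and by 0.31 under air (adjusted p = 0.0138). The smoke call was lost without wild type smoke replicate 1 (-0.164) or deficient smoke replicate 2 (-0.24) or 3 (-0.246), and the air call without wild type air replicate 1 (-0.244) or deficient air replicate 2 (-0.295). Uqcrfs1, the Rieske iron-sulfur protein, was lower by 0.24 under smoke (adjusted p = 0.01) and by 0.20 under air (adjusted p = 0.0343; lost in 4 settings that leave out 1 air array), and the small subunit Uqcr10 by 0.35 (adjusted p = 0.00399) and 0.32 (adjusted p = 0.0105). Uqcrb, a small matrix-side subunit, was the exception: it was higher under smoke, at 11.33, 11.499 and 11.32 in deficient hosts against 11.15, 11.07 and 10.83 in wild type hosts. That difference of 0.37 ± 0.10 (adjusted p = 0.00789) became 0.223 with centred arrays and did not pass (adjusted p = 0.084).

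Complex V had 1 of 17 subunits higher and 9 lower in deficient hosts under smoke, and 0 higher and 6 lower under air (7 had an unadjusted p under 0.05). For all genes the shares were 22.7% higher and 37% lower under smoke, and 20.5% and 18% under air. The catalytic beta subunit gene Atp5b and the alpha subunit gene Atp5a1 were in neither count of complex V. They differed by -0.12 each under smoke and by -0.14 and -0.09 under air. The largest differences of the complex were those of Atp5g2, a gene for the c subunit, the protein that forms the rotating ring in the membrane. In mammals 3 genes, Atp5g1, Atp5g2 and Atp5g3, encode the same mature c subunit with different import sequences. Atp5g2 had log2 levels of 11.39, 11.18 and 11.34 in deficient smoke, 11.36, 11.17 and 11.24 in deficient air, 12.02, 12.01 and 12.09 in wild type smoke and 11.78, 11.85 and 11.83 in wild type air. Deficient arrays lay well below wild type arrays, and wild type smoke was above wild type air without overlap.

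Atp5g2 was lower in deficient hosts by 0.74 ± 0.07 under smoke (limma, adjusted p = 1.58e-06) and by 0.57 ± 0.07 under air (adjusted p = 3.31e-05). All 3 of its probe sets were lower, with differences of -0.74, -0.90 and -1.05 under smoke and of -0.57, -0.76 and -0.55 under air. Atp5g3 had 11.27, 11.12 and 11.24 in deficient smoke, 11.30, 11.15 and 11.17 in deficient air, 11.44, 11.64 and 11.69 in wild type smoke and 11.59, 11.57 and 11.40 in wild type air. Its groups did not overlap between hosts, and it was lower by 0.38 ± 0.08 under smoke (adjusted p = 0.00147) and by 0.31 ± 0.08 under air (adjusted p = 0.0079). Atp5g1 had 8.95, 8.65 and 8.94 in deficient smoke, 9.02, 8.86 and 8.74 in deficient air, 9.36, 9.18 and 9.35 in wild type smoke and 9.10, 8.995 and 8.89 in wild type air. It was lower under smoke by 0.45 ± 0.10 (adjusted p = 0.00201), and under air its arrays overlapped (-0.12, adjusted p = 0.413). Several genes of this family have near-identical copies elsewhere in the genome, so a probe set may also report a copy.

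Other subunits of ATP synthase that were lower in both genotype comparisons were the central stalk genes Atp5c1 (gamma; -0.35 under smoke and -0.26 under air) and Atp5d (delta; -0.18 and -0.20), and Atp5mpl, a small membrane subunit (-0.40 and -0.27). Atp5l, the membrane subunit g, was lower by 0.47 under smoke (adjusted p = 0.00061) and differed by -0.21 under air without passing. The smoke value was negative on all 5 Atp5l probe sets, between -0.57 and -0.25. The window before the start of Atp5g2 (chr15:102671048-102671297, minus strand) is shown because this gene had the largest negative difference of the 90 and because it holds an NRF1 match, in capitals, which begins 42 bases before the start.
Atp5g2: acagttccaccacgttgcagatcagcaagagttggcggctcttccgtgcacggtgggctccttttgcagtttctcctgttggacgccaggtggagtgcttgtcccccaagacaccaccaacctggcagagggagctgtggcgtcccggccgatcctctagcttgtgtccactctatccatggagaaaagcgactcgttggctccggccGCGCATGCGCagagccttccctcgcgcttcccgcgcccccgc
NRF1 is a known regulator of respiratory chain genes. A promoter window was at hand for 73 of the 90 genes, and 12 of these (16.4%) held the NRF1 letters, against 1044 of 27025 windows of all genes (3.86%). The ETS letters CCGGAAG were found in 12 (16.4%), against 7.05% of all windows, and TATAAA in 7 (9.59%), against 13.0%. Of the 4 tissue-restricted complex IV genes with a window 0 held the NRF1 or the ETS letters and 1 held TATAAA. The letters are a description of these windows and not a site of binding.

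The 2 genotype comparisons share no arrays. Of the 90 genes, 8 were higher in deficient hosts under both exposures and 17 lower under both, and 0 passed in opposite directions. These 25 were 27.8% of the family, against 33.1% of all genes that passed in the same direction under both exposures. They made up 83.3% of the 30 genes that passed under air and 51% of the 49 that passed under smoke, against 86% and 55.5% for all genes. The 8 higher genes were Cox4i2, Cox7a1, Cox6a2, Cox8b, Ndufa4l2, Ndufaf3, Ndufb11 and Ndufc2, so that 4 of them were tissue-restricted forms of complex IV. The 17 lower genes were Ndufv2, Ndufa10, Ndufab1, Ndufb9, Ndufaf7, Sdhc, Sdhd, Cyc1, Uqcr10, Uqcrfs1, Cox6c, Cox7a2l, Atp5c1, Atp5d, Atp5g2, Atp5g3 and Atp5mpl, spread over all 5 complexes. Cox7a2l was lower by 0.34 under smoke (adjusted p = 0.00202) and by 0.20 under air (adjusted p = 0.0478), and the air call was lost in 11 of 18 alternative settings. Under air the count of higher genes fell to 5 without deficient air replicate 1 and to 4 without wild type air replicate 1.

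Across the 90 genes the differences under air and smoke had r = 0.80 and rho = 0.72, and r = 0.69 over the 81 genes outside the tissue-restricted forms and the Ndufa4 pair, against r = 0.79 over all genes. These are descriptions across genes, which share the 12 arrays and are not independent replicates. The groups did not overlap for 54 of the 90 genes under smoke, against 61.3% of all genes, and for 44 under air, against 51.9%.

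**Figure D3:**
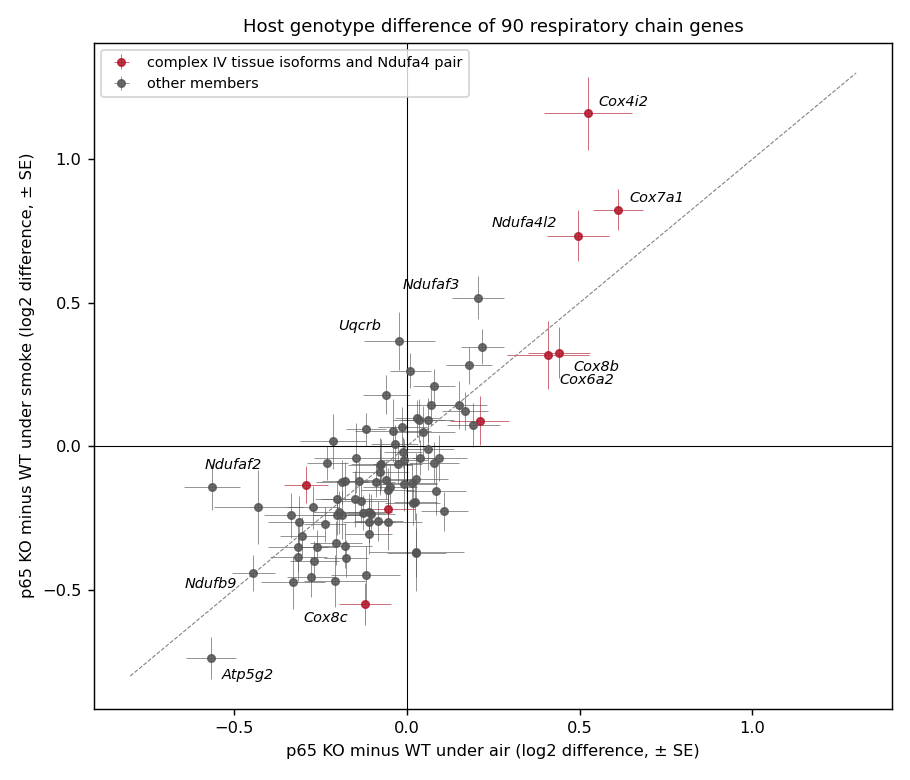
Genotype difference (RelA/p65 deficient, p65 KO, minus wild type, WT; log2, with SE) of the 90 genes under air (horizontal) and under smoke (vertical); the dashed line marks equal differences. Cox4i2, Cox7a1 and Ndufa4l2 lie at the upper right (0.52 and 1.16, 0.61 and 0.82, 0.50 and 0.73) and Atp5g2 at the lower left (-0.57 and -0.74), while most other genes lie near the centre.

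Smoke in wild type hosts moved 11 of the 90 genes. The 4 higher genes were Cox8c, Atp5g1 (0.30, adjusted p = 0.0378), Atp5k (0.27, adjusted p = 0.0317) and Atp5g2 (0.22, adjusted p = 0.0392), and the 7 lower ones were Cox4i2, Cox7a1, Ndufaf3, Ndufa4l2, Ndufc1 (-0.25, adjusted p = 0.00877), Atp5h (-0.24, adjusted p = 0.0173) and Ndufa3 (-0.18, adjusted p = 0.0455). The calls for Cox8c, Cox4i2, Cox7a1 and Ndufaf3 held in all 18 alternative settings, while that for Ndufa3 was lost in 14, for Atp5g2 in 9, for Atp5g1 and Atp5h in 7 each, for Atp5k in 4 and for Ndufc1 in 2. The 3 probe sets of Atp5h did not share a sign in this comparison (-0.28 to 0.10), and their mean gave -0.142 (adjusted p = 0.228), so its direction is uncertain. The groups did not overlap for 26 of the 90 genes, against 36.9% of all genes. Single arrays weighed on the counts: 1 gene was higher and 4 lower without wild type air replicate 3, 7 and 12 without wild type smoke replicate 1, 2 and 4 without wild type smoke replicate 3, and 5 and 4 without wild type smoke replicate 2. Without wild type air replicate 1 or 2 there were 2 higher and 5 or 6 lower. The share of all genes that passed moved too, from 18.5% without wild type air replicate 3 to 44.3% without wild type smoke replicate 1. Fitting the 6 arrays of the comparison alone gave 1 higher and 3 lower.

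Smoke in deficient hosts moved none of the 90 genes past the test. Their differences ran from -0.28 for Cox6a2 to 0.33 for Ndufaf2, and the groups did not overlap for 13 of them, against 22.7% of all genes. Ndufaf2 came closest (0.33 ± 0.08, adjusted p = 0.0577) and passed in 7 alternative settings, with adjusted p between 0.0102 and 0.0488. Cox8b, at -0.25, also had groups that did not overlap (adjusted p = 0.267).

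The difference between the smoke effects of the 2 genotypes was tested as an interaction, and 2 of the 90 genes had a positive and 3 a negative value (5.56%), while 14.6% of all genes passed, 8.89% positive and 5.7% negative. The positive ones were Cox4i2 (0.64 ± 0.18, adjusted p = 0.0314) and Ndufaf2 (0.42 ± 0.11, adjusted p = 0.0249), and the negative ones Cox8c (-0.43 ± 0.11, adjusted p = 0.0143), Atp5k (-0.40, adjusted p = 0.0413) and Ndufb7 (-0.34, adjusted p = 0.0326). For Cox4i2 and Cox8c the smoke effect was seen in wild type hosts and the deficient arrays were level, whereas for Ndufaf2 the difference lay with the low deficient air arrays. Leaving out any 1 of the 12 arrays moved one of the 2 counts by over 1.5 times, within 0 to 6 positive and 1 to 4 negative, and only the call for Cox8c held in all 17 alternative settings. Among all genes 11.2% to 24.9% passed when 1 array was left out. With centred arrays 1 gene of the family was positive and 4 were negative.

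Lists of other mitochondrial genes give the surroundings of the family. The machinery that imports and makes mitochondrial proteins differed mostly downwards between hosts. Over all genes, 22.7% were higher and 37% lower in deficient hosts under smoke, and 20.5% and 18% under air. Of 18 Tomm and Timm import genes 0 were higher and 15 lower in deficient hosts under smoke (median -0.43), and 0 were higher and 14 lower under air (median -0.32), with 15 at an unadjusted p under 0.05 in each. Tomm5, a small subunit of the outer membrane translocase, differed by -0.74 and -0.46, and Timm44, which tethers the import motor, by -0.53 and -0.38. Of 77 mitochondrial ribosomal proteins 3 were higher and 52 lower under smoke (median -0.29) and 0 were higher and 36 lower under air (median -0.20). Mrpl2, a large subunit protein, differed by -0.61 and -0.49.

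Assembly factors outside the family had 6 of 35 higher and 15 lower under smoke and 2 higher and 12 lower under air, with medians of -0.17 and -0.14. The shares that passed in either direction, 60% and 40%, were near the 59.6% and 38.5% of all genes. By direction under air, the 12 of 35 lower stood beside 18% of all genes and the 2 higher beside 20.5%. Among these factors Uqcc2, a complex III assembly factor, differed by -0.77 and -0.41 and Lrpprc, which stabilizes mitochondrial messenger RNA, by -0.67 and -0.46. Of 17 enzymes of the tricarboxylic acid cycle and its entry, 4 were higher and 7 lower under smoke and 1 was higher and 6 lower under air, with Fh1, fumarate hydratase, at -0.48 and -0.27. Their shares past the test in either direction, 64.7% and 41.2%, were also near those of all genes. Under air the 6 of 17 lower stood beside 18% of all genes and the 1 higher beside 20.5%. Fatty acid oxidation enzymes went both ways (4 higher and 2 lower of 16 under smoke, 2 higher and 1 lower under air). Of 11 carriers for nucleotides, phosphate and protons 0 were higher and 4 lower under smoke, and 0 were higher and 3 lower under air (4 had an unadjusted p under 0.05 in each). For these carriers 36.4% and 27.3% passed, and for the fatty acid oxidation enzymes 37.5% and 18.8%. These shares lay below those of all genes.

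Known regulators of the family moved in both directions. Ppargc1a, the coactivator PGC-1alpha, was higher in deficient hosts by 0.56 under smoke (adjusted p = 1.28e-05) and by 0.24 under air (adjusted p = 0.0131), while its relative Pprc1 was lower by 0.97 (adjusted p = 1.04e-05) and 0.55 (adjusted p = 0.00191). In all 1 of 15 regulators was higher and 8 lower under smoke, and 2 were higher and 3 lower under air. In either direction 60% and 33.3% passed, near the 59.6% and 38.5% of all genes. Under smoke the 8 of 15 lower stood beside 37% of all genes and the 1 higher beside 22.7%. Nrf1 was lower by 0.27 under smoke (adjusted p = 0.029) and differed by -0.21 under air without passing, and Gabpa, an ETS factor, was lower by 0.23 under smoke (adjusted p = 0.0102).

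**Figure D4:**
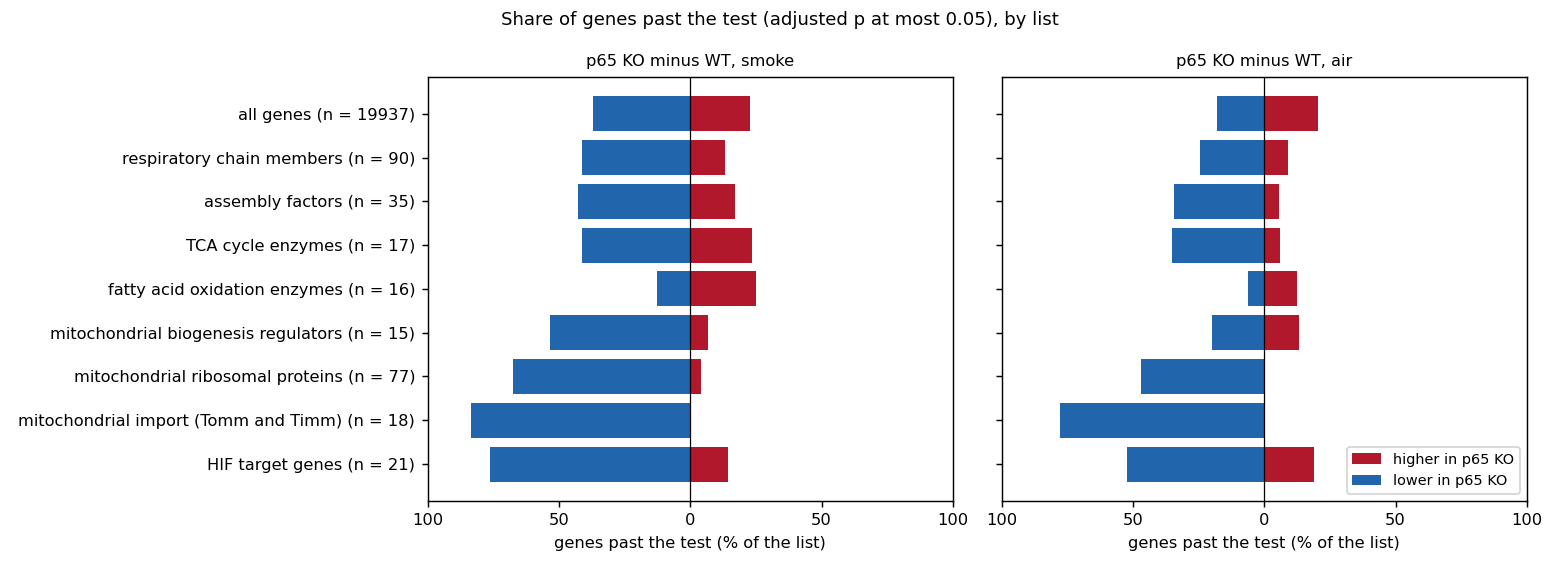
Share of each gene list that passed the test as higher (red, to the right) or lower (blue, to the left) in RelA/p65 deficient hosts (p65 KO) than in wild type hosts (WT), under smoke and under air, in percent of the n genes measured. Under smoke 12 of the 90 respiratory chain genes were higher and 37 lower, and the longest bars to the left are those of the import genes (15 of 18 lower) and the HIF targets (16 of 21 lower).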

How the data were processed

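Total RNA of 12 samples was hybridised to 12 arrays, 1 each. The log2 values were used as deposited; per the submitters' processing notes the authors made them in Affymetrix Expression Console with RMA (background correction, quantile normalization and probe summary; versions not given in the sources used here). Of 34760 probe sets, 22961 were in the platform annotation and 21640 of these named 1 gene. Each gene took its probe set of highest mean level, which gave 19937 genes. Of the 90 respiratory chain genes, 73 had 1 probe set and 17 had several; all 90 matched a RefSeq gene table by Entrez identifier, with 0 symbols changed. Probe sets naming several genes were left out.

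A mean per group was fitted in limma 3.58.1 (R 4.3.3; residual df 8, prior df 4.83), and 5 contrasts were tested in either direction with Benjamini-Hochberg adjustment over all genes at 0.05. The standard error is the moderated one. The number of arrays limits the precision. Levels of different probe sets were not compared with each other, since their scales differ. Named genes were those past the test with groups that do not overlap, taken by size, up to 8 in each direction per comparison, and a set of isoform pairs and small complexes, with up to 4 genes of smallest p from each other list. Atp5a1, Atp5b, Atp5c1, Atp5d, Cox6c, Cox7b2, Ndufab1, Ndufs4, Ndufs6, Ndufv2, Nrf1 and Ucp1 were named outside this rule after their values were seen. The members and the gene lists were chosen with earlier results of these data known. Alternatives were a filter on dim genes (at least 6 on the log2 scale in 3 or more arrays, which 89 of the 90 genes and 15007 genes in all passed), averaging the probe sets of a gene, median centring, quantile normalization, a block for the replicate number, a fit of only the 6 arrays compared, and each array left out in turn. Promoter windows are from RefSeq (GRCm38.p6), read in Python 3.11.15 with pandas 2.3.3; figures used matplotlib 3.10.9.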

Additional observations from a re-analysis of the deposited data

Results flagged for a closer look

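In 5 genes the smoke difference in RelA/p65 deficient hosts differed from that in wild type hosts by the interaction test of limma. Cox8c gave -0.428 (adjusted p = 0.0143), from smoke differences of -0.10 in deficient and 0.33 in wild type hosts. Ndufaf2 gave 0.422 (adjusted p = 0.0249), from 0.33 in deficient and -0.09 in wild type hosts. Cox4i2 gave 0.635 (adjusted p = 0.0314), from 0.02 in deficient and -0.62 in wild type hosts. Ndufb7, an accessory subunit of complex I, gave -0.335 (adjusted p = 0.0326), from -0.17 and 0.16, neither of which passed. Atp5k, subunit e of ATP synthase, gave -0.398 (adjusted p = 0.0413), from -0.13 in deficient and 0.27 in wild type hosts.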

How the results depend on the processing

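The 60 single-gene results kept their direction in all 1075 recomputed values; 934 stayed on their side of the test, 141 lost it, 0 reversed, and 35 results held in every setting. With median centring, genes higher and lower with smoke in wild type hosts were 23 and 3 (median 0.107), those for genotype under air 5 and 36 (median -0.144) and under smoke 5 and 59 (median -0.273), and the interaction had 1 positive gene and a median of -0.103. Quantile normalization gave 15 genes higher with smoke in wild type hosts (median 0.0579) and medians of 0.0103 for smoke in deficient hosts, -0.111 for genotype under air and -0.198 under smoke. Fitting only the 6 arrays compared left 1 higher and 3 lower with smoke in wild type hosts. For smoke in deficient hosts 1 gene, Ndufaf2, was higher with the filter, median centring, quantile normalization, the replicate block, the 6 arrays alone, and without wild type smoke replicate 1 or deficient smoke replicate 2. The shares of all genes in these settings are not given here. The causes were not tested.

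Leaving out each array in turn gave, for smoke in wild type hosts, 1 to 7 higher, 4 to 12 lower and medians of -0.0234 to 0.0338; for smoke in deficient hosts, 0 to 1 higher, 0 lower and medians of -0.0398 to 0.0111; for genotype under air, 4 to 10, 16 to 26 and -0.0929 to -0.0492; for genotype under smoke, 10 to 13, 27 to 37 and -0.163 to -0.0926; and for the interaction, 0 to 6, 1 to 4 and -0.0621 to -0.018. In that order, 18.5% to 44.3%, 1.31% to 3.6%, 32.4% to 43%, 49.4% to 67.6% and 11.2% to 24.9% of all genes passed. Same-numbered arrays of different groups deviated together in 7 of 18 pairs (r above 0.1, with a range of -0.363 to 0.365). Among the 12 arrays, 7 correlated best with their own number. This check cannot decide whether the numbers pair the samples, since the labels only number the arrays. With the replicate number as a block, 6 genes were higher and 7 lower with smoke in wild type hosts, and 6 and 22 for genotype under air. A low signal limits Cox7b2 most, the gene that fails the filter. Cox8c and Cox8b, at mean log2 levels of 6.47 and 6.63, passed it but also lay below the median of 7.44 over all genes.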

Other observations

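Cox7c and Ndufb4 could be read only from probe sets that name a second gene as well. The brightest such probe set of Cox7c, a subunit of complex IV, averaged 9.93 ± 0.05 in deficient smoke, 9.80 ± 0.04 in deficient air, 10.13 ± 0.05 in wild type smoke and 10.13 ± 0.07 in wild type air (SD, n = 3), with genotype differences of -0.20 under smoke and -0.33 under air. That of Ndufb4, an accessory subunit of complex I, differed by 0.34 under smoke and 0.06 under air.

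Of the subunits coded in mitochondrial DNA, ND3 and COX2 were on the arrays with a probe set of their own. ND3 averaged 13.32 ± 0.04 in deficient smoke, 13.28 ± 0.04 in deficient air, 13.20 ± 0.09 in wild type smoke and 13.27 ± 0.07 in wild type air. COX2 averaged 13.31 ± 0.07, 13.23 ± 0.04, 13.07 ± 0.26 and 13.19 ± 0.12 in the same groups. Of the 2, limma called 0 in each comparison, and 1 had an unadjusted p under 0.05, for genotype under smoke.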
